A study of Caenorhabditis elegans with 5 samples.

Results

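The MATH and BATH genes of Caenorhabditis elegans, together with mel-26, were followed between Day 6 of adulthood and L4, the last larval stage. A gene was taken as a member if its symbol or alias was math or bath followed by a number, or if it was mel-26, and 85 of the 19176 features in the count files met this rule. They were 44 bath genes, 40 math genes and mel-26, and 15 of them are annotated as pseudogenes (7 bath and 8 math). One bath gene, listed in the files under the alias bath-43, now carries the symbol spop-1 and is called so here.

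RNA was sequenced from whole wild type N2 worms in 3 libraries at Day 6 and 2 libraries at L4. All animals grew at 20° on plates with 2 mM IPTG and ate HT115, an E. coli strain that held the insert-free RNAi plasmid L4440. The Day 6 worms had in addition been on FUdR (25 µg/mL), which blocks DNA synthesis and so reproduction, from the L4 stage onward, so age and FUdR cannot be told apart. Because whole worms were lysed, a lower value can come from fewer cells of a type or from less RNA per cell, and these cannot be told apart either.

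The MATH domain (meprin and TRAF homology) binds other proteins, and the BTB domain binds the cullin CUL-3. Proteins that carry both, for which the bath genes are named, can act as substrate adaptors of CUL-3 ubiquitin ligases: the MATH domain holds the target and the BTB domain brings it to the ligase. MEL-26 is the best studied worm example, and it removes the katanin subunit MEI-1, a microtubule-severing protein of the meiotic spindle, before the first mitosis of the embryo. Most math genes encode MATH domains without a BTB domain, and MATH-33 is a deubiquitylating enzyme, related to mammalian USP7, that acts on the transcription factor DAF-16. Both families are greatly expanded in nematodes and lie mostly in clusters.

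The InterPro entries in the files followed these names only in part. Of the 44 bath genes, 24 had a BTB entry. A MATH and a BTB entry stood together at 23 members, and a MATH entry without a BTB entry at 36 members, all of them math genes. The bath genes bath-27 and bath-35 had a BTB entry alone, 21 members had no entry, and 3 had other entries only. Among these last, bath-28 carried F-box entries, which mark adaptors of another class of cullin ligase.

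The libraries held 29247719, 13043617 and 13419940 counts in Day 6 replicates 1, 2 and 3, and 14517986 and 9368922 counts in L4 replicates 1 and 2. Levels are given in CPM, counts scaled to a common library size after TMM, a method that assumes most genes to be equal between libraries. The TMM factors were 1.03, 1.63 and 1.25 at Day 6, and 0.293 and 1.62 at L4, so L4 replicate 1 was scaled very differently from the rest. Across genes, which are not replicates, log2 CPM correlated with a Pearson's r of 0.96 to 0.97 between Day 6 libraries and of 0.80 between the L4 libraries. Where leaving out 1 L4 library moved a named gene's change by over 1.5 times or altered its call, values without that library are given for many genes but not for all. A fit with a single L4 library takes its spread from the Day 6 libraries, and its p-values do not measure variation among L4 animals.

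Most bath genes were higher at Day 6, whereas the math genes split, with most of the tested ones below L4 on the fitted scale. Summed over the 44 bath genes, the level was 702, 528 and 599 CPM in the Day 6 libraries, against 172 and 124 CPM in the L4 libraries. The 2 ages did not overlap, and this held without bath-42, the bath gene with the highest level at Day 6 (465.5, 395 and 453 CPM at Day 6, against 162 and 97.3 CPM at L4). The 39 math genes other than math-33 summed to 22.2, 28.8 and 33.0 CPM at Day 6, against 9.16 and 97.3 CPM at L4. Here all 3 Day 6 sums lay between the 2 L4 sums.

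**Figure D1:**
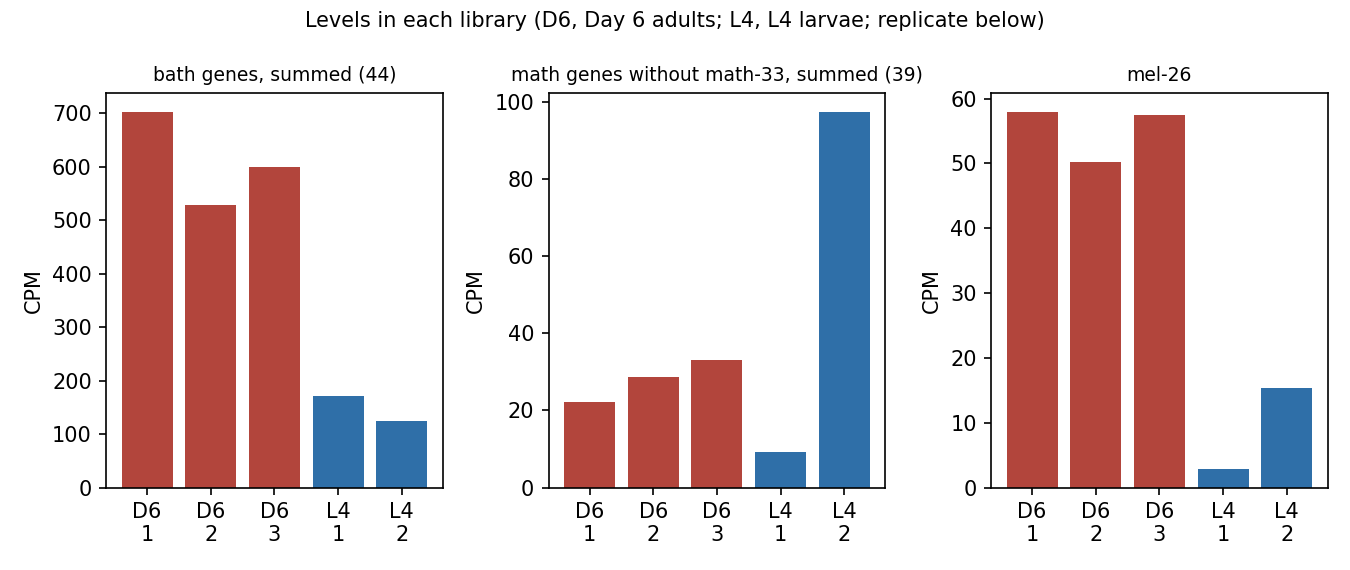
Levels of the bath genes (summed over 44), of the math genes without math-33 (summed over 39) and of mel-26, in CPM (y axis), 1 bar for each library, Day 6 in red and L4 in blue. All Day 6 bars stand above both L4 bars for the bath genes and mel-26, while the math sums at Day 6 (22.2 to 33.0 CPM) lie between those of L4 replicate 1 (9.16 CPM) and L4 replicate 2 (97.3 CPM).

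Day 6 was compared with L4 gene by gene with the quasi-likelihood test of edgeR, and a gene was called at an adjusted p (Benjamini-Hochberg over the 12758 genes with enough counts) under 0.05. Of the 85 members, 8 had no count in any library, 77 had counts and 49 could be tested (32 bath genes, 16 math genes and mel-26). Day 6 was higher for 19 tested members (17 bath genes, math-38 and mel-26), where 13.7% of all tested genes were called higher. Of these 19, 8 had no L4 count and passed the count filter through Day 6 alone. Over all tested genes 362 had no L4 count, and 299 of these were called higher. Only math-4 was called lower, where 11.9% of all tested genes were called lower. The other 29 tested members, 15 bath and 14 math genes, passed in neither direction. The fitted change was positive in 29 of 32 tested bath genes and in 5 of 16 tested math genes, against 6554 of all 12758 tested genes. Among the positive members, 7 bath genes and math-38 had no L4 count, so their change could only be positive. The median fitted change on the log2 scale was 2.95 in bath genes, -0.50 in math genes and 0.08 over all tested genes. With the genes that had no L4 count set to a lower bound, the bath median was 2.52.

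These counts depended on the libraries. Leaving out Day 6 replicate 1, 2 or 3 left 1, 3 or 1 members called higher, where 1.39%, 3.51% or 1.12% of all tested genes were called so, and bath-30 was among them each time. Fitting the replicate as a block left 5 members called higher by the numbers of the sample titles and 2 by those of the library names (the L4 numbers of titles and library names conflict), where 5.93% and 3.14% of all tested genes were called higher.

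In 40 of the 77 members with a count (33 bath genes, 6 math genes and mel-26) every Day 6 library lay above both L4 libraries, which was so for 29.5% of all features with a count. In 5 of these 77 members, 2 bath and 3 math genes, every Day 6 library lay below both L4 libraries, against 19.9% of all features with a count. Of the 77 members, 27 had no L4 count, against 2930 of the 18088 features with a count. Such genes could not lie below L4, and any count in each Day 6 library put them above it.

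**Figure D2:**
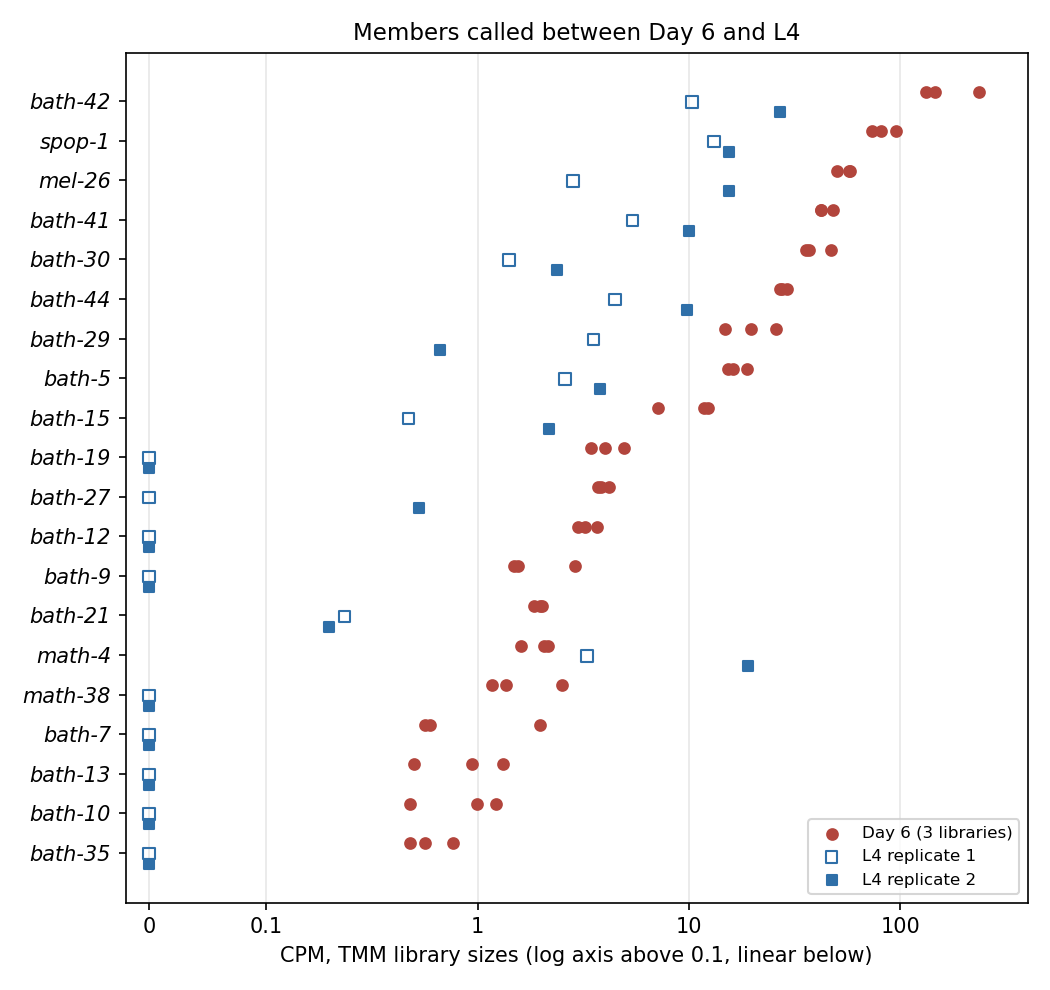
Levels of the 20 called members in CPM (x axis, logarithmic above 0.1 and linear below), with Day 6 libraries as red circles, L4 replicate 1 as open squares and L4 replicate 2 as filled squares. In every gene but math-4 the 3 Day 6 points lie right of both L4 points, and 8 genes have both L4 points at 0.

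The founding adaptor mel-26 (chromosome I, 9132538 to 9135753 of WBcel235) rose at Day 6. Its level was 57.9, 50.3 and 57.4 CPM in the Day 6 libraries, against 2.82 and 15.4 CPM in the L4 libraries. The Day 6 libraries lay close together and above both L4 libraries, of which replicate 1 was the lower. The means were 55.2 ± 4.26 CPM at Day 6 (SD, n = 3) and 9.12 ± 8.91 CPM at L4 (SD, n = 2), with a log2 fold change of 2.56 ± 0.76 (SE, edgeR adjusted p = 0.0445). Without L4 replicate 1 the change was 1.92, and without L4 replicate 2 it was 4.30. The call was lost under 7 of 16 alternatives, among them upper-quartile factors (adjusted p = 0.0531 in edgeR), both replicate blocks (0.0642 by title and 0.117 by library-name numbers) and each Day 6 library left out (0.116 to 0.145).

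The katanin genes that MEL-26 acts on at the protein level were also higher at Day 6. The ATPase subunit mei-1 stood at 80.4, 66.7 and 82.1 CPM at Day 6, against 21.8 and 9.40 CPM at L4, a log2 fold change of 2.30 ± 0.57 (SE, edgeR adjusted p = 0.0277). Its partner mei-2 stood at 142, 64.6 and 115 CPM at Day 6, against 12.4 and 9.40 CPM at L4, a log2 fold change of 3.30 ± 0.62 (SE, edgeR adjusted p = 0.0115). In both genes the ages did not overlap, but the mei-1 call was lost under 8 of 16 alternatives and the mei-2 call under 4. Without L4 replicate 1 the mei-1 change was 3.10. The phosphatase subunit ppfr-1, which opposes the phosphorylation that marks MEI-1, had 45.3, 33.9 and 38.1 CPM at Day 6, against 2.82 and 16.5 CPM at L4. These values did not overlap either, but the gene was not called (log2 fold change 1.98 ± 0.76, SE, edgeR adjusted p = 0.0925). It was called higher under 4 alternatives, among them DESeq2 (1.93, adjusted p = 0.0281), without L4 replicate 1 (1.32, edgeR adjusted p = 0.00467) and without L4 replicate 2 (3.8, edgeR adjusted p = 7.9e-06).

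The list of MEL-26 substrate and katanin regulators held 11 genes, all tested, of which 5 rose (mei-1, mei-2, egg-3, egg-4 and egg-5) and none fell, against 13.7% and 11.9% of all tested genes, with a median log2 fold change of 1.98. EGG-3, EGG-4 and EGG-5 hold the kinase MBK-2, which phosphorylates MEI-1, at the cortex of the oocyte. Of these, egg-3 reached 222, 108 and 107 CPM at Day 6, against 3.76 and 4.63 CPM at L4, with a log2 fold change of 5.11 ± 0.71 (SE, edgeR adjusted p = 0.00564). Its relative egg-4 had 163, 107 and 100 CPM at Day 6, against 8.46 and 3.77 CPM at L4 (log2 fold change 4.36 ± 0.68, SE, edgeR adjusted p = 0.00743), and its change was 5.10 without L4 replicate 1.

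Markers of oocytes moved with these genes. All 10 oocyte markers rose, and their summed level was 2934 to 6210 CPM at Day 6, against 103.8 to 155 CPM at L4, none of them at 0; mei-1 is on this list too. Of 9 markers of germline proliferation and meiosis 8 rose (875 to 1239 CPM at Day 6, against 189 to 277 CPM at L4). Of 10 sperm markers 8 were tested, 2 fell and none rose (32.8 to 61.2 CPM at Day 6, against 137 to 174 CPM at L4). The 2 that fell, gsp-3 (85.5 CPM) and gsp-4 (41.6 CPM), made up most of the sum in L4 replicate 1. Of the 8, only spe-41 and spe-44 had positive fitted changes (1.53 and 1.67 on the log2 scale), and neither was called. Over all tested genes 13.7% rose and 11.9% fell. The part of germ cells in the levels of mel-26 and the bath genes was not tested.

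Of the 4 bath genes on chromosome III, all 4 rose, where 13.7% of all tested genes did. Their calls were lost under 5 (bath-42) or 6 (spop-1, bath-41 and bath-15) of 16 alternatives, and without L4 replicate 2 the change was 4.06 for bath-42 and 4.46 for bath-15. spop-1 (III, 10090862 to 10098081), whose description in the files names SPOP, a human substrate adaptor of cullin 3, had 73.2, 80.9 and 95.2 CPM at Day 6, against 13.2 and 15.5 CPM at L4. The replicates of each age lay close together and the ages did not overlap, with means of 83.1 ± 11.1 CPM (SD, n = 3) and 14.3 ± 1.65 CPM (SD, n = 2). Its log2 fold change was 2.53 ± 0.50 (SE, edgeR adjusted p = 0.0135).

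bath-42 (III, 8161455 to 8163383) had the highest level of all members at Day 6. It was at 236, 133 and 146 CPM at Day 6, against 10.3 and 27.1 CPM at L4, and the lowest Day 6 library was still above the highest L4 library. The log2 fold change was 3.19 ± 0.71 (SE, edgeR adjusted p = 0.0198). Per kilobase of exon (RPKM) its mean level was 101 at Day 6 and 10.99 at L4.

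The remaining 2 genes of chromosome III also rose. bath-41 (III, 6720415 to 6722258) had 47.9, 42.1 and 42.2 CPM at Day 6, against 5.40 and 9.99 CPM at L4, with a log2 fold change of 2.50 ± 0.54 (SE, edgeR adjusted p = 0.0180). Its exons share 89 bases with a gene on the opposite strand, and the strand setting of the counting is not stated. bath-15 was lower in level, with 12.3, 7.12 and 11.7 CPM at Day 6, against 0.470 and 2.18 CPM at L4 (log2 fold change 2.84 ± 0.79, SE, edgeR adjusted p = 0.0377).

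Away from the clusters of chromosome II, results for single bath genes varied. bath-44 (II, 7394955 to 7397351) rose, at 27.5, 26.9 and 29.2 CPM at Day 6, against 4.46 and 9.79 CPM at L4 (log2 fold change 1.94 ± 0.57, SE, edgeR adjusted p = 0.0423), with a change of 2.65 without L4 replicate 2. bath-38, also on chromosome II, had 20.8, 21.8 and 24.5 CPM at Day 6, against 3.76 and 12.04 CPM at L4. Its ages did not overlap but it was not called (log2 fold change 1.47 ± 0.63, SE, edgeR adjusted p = 0.121). It was called higher without L4 replicate 1 (0.97, edgeR adjusted p = 0.0222) and without L4 replicate 2 (2.58, edgeR adjusted p = 0.000102). On chromosome V, bath-36 had 4.91, 1.32 and 4.82 CPM at Day 6, against 0.705 and 0.132 CPM at L4 (log2 fold change 3.42, edgeR adjusted p = 0.0667), and 101 bases of its exons lie under a non-coding RNA on the same strand. bath-39, also on chromosome V, had 1.43, 1.89 and 3.28 CPM at Day 6, against 0 and 0.860 CPM at L4 (log2 fold change 2.06, edgeR adjusted p = 0.204). Neither was called, although in both the ages did not overlap. bath-36 was called without L4 replicate 1 (4.81, edgeR adjusted p = 0.00582) and stood at 2.39 without L4 replicate 2, and bath-39 was called without L4 replicate 2, which leaves it no L4 count, and stood at 1.41 without L4 replicate 1.

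bath-40 (I, 14647782 to 14651288) was abundant at both ages and was not called. It had 117, 81.8 and 88.6 CPM at Day 6, against 78.7 and 18.3 CPM at L4. The lowest Day 6 library was close to L4 replicate 1, and the L4 libraries differed more from each other than the Day 6 libraries did. The log2 fold change was 0.99 ± 0.69 (SE, edgeR adjusted p = 0.310), with 2.46 without L4 replicate 1 (edgeR adjusted p = 0.000356) and 0.29 without L4 replicate 2. Among the 10 members with the highest mean of the 2 group means, bath-40, math-33, bath-38 and bath-47 were the ones that passed in neither direction.

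Chromosome II held 33 bath and 37 math genes, and 65 of these 70 members stood in 4 neighbourhoods in which no gap between members exceeded 100000 bases. The neighbourhood from 3343731 to 3381403 held 8 bath genes and no math gene, and 5 of its 6 tested members rose, where 13.7% of all tested genes did. Of these 5, bath-9 and bath-10 had no L4 count and passed the count filter through Day 6 alone. The leading gene was bath-30 (II, 3345218 to 3346378), with 47.1, 37.0 and 35.9 CPM at Day 6, against 1.41 and 2.38 CPM at L4. The ages were far apart, with a log2 fold change of 4.35 ± 0.61 (SE, edgeR adjusted p = 0.00563), and bath-30 had the lowest adjusted p of all members. Its call was lost under 1 of 16 alternatives, library size alone.

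The neighbours of bath-30 were higher at Day 6 too. bath-29 had 19.6, 14.8 and 25.8 CPM at Day 6, against 3.52 and 0.662 CPM at L4 (log2 fold change 3.38 ± 0.86, SE, edgeR adjusted p = 0.0297). bath-28, the F-box gene, had 18.0, 10.7 and 15.6 CPM at Day 6, against 3.52 and 0.397 CPM at L4, and just missed the threshold (log2 fold change 3.06 ± 0.97, SE, edgeR adjusted p = 0.0538). In both genes the ages did not overlap, and L4 replicate 1 was the higher L4 library. Without L4 replicate 1 the changes were 4.98 for bath-29 and 5.27 for bath-28, and without L4 replicate 2 they were 2.51 and 2.07, all called. bath-27 had 4.18, 3.82 and 3.69 CPM at Day 6, against 0 and 0.529 CPM at L4 (log2 fold change 3.50 ± 1.03, SE, edgeR adjusted p = 0.0448), but 610 bases of its exons are shared with lido-14 on the same strand, so reads of these 2 genes may not have been told apart. Its change was 2.95 without L4 replicate 1, and without L4 replicate 2 it had no L4 count.

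bath-9 and bath-10, in the same neighbourhood, had no count at L4. For such genes a lower bound is given against 3 counts over the L4 group. bath-9 had 145 counts over the Day 6 libraries (2.89, 1.56 and 1.49 CPM) and was at least 13.7-fold higher at Day 6 (edgeR adjusted p = 0.0206), with 208 bases of exon shared with another gene on its strand. bath-10 had 64 counts (0.996, 1.23 and 0.476 CPM) and was at least 6.06-fold higher at Day 6 (edgeR adjusted p = 0.0388). Of the 3 tested genes between these members that belong to neither family, 2 also rose, where 13.7% of all tested genes did.

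The largest neighbourhood, from 1763372 to 2155220, held 48 members, 14 bath and 34 math genes, of which 23 were tested, 4 rose and 1 fell. This is near the share over all tested genes, of which 13.7% rose and 11.9% fell. The 4 that rose were bath genes. bath-5 had 15.2, 16.2 and 18.9 CPM at Day 6, against 2.58 and 3.77 CPM at L4 (log2 fold change 2.38 ± 0.57, SE, edgeR adjusted p = 0.0235). bath-21 was lower in level, with 2.03, 1.98 and 1.85 CPM at Day 6, against 0.235 and 0.199 CPM at L4 (log2 fold change 3.17 ± 0.93, SE, edgeR adjusted p = 0.0427). In both the ages were well apart, with the replicates of each age close together. The L4 values of bath-21 rest on 1 and 3 counts, though, where closeness shows little. The call was lost under 6 of 16 alternatives for bath-5 and under 8 for bath-21.

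bath-19 (II, 2035695 to 2039388) had 3.45, 4.01 and 4.94 CPM at Day 6 and no count at L4. Its 272 Day 6 counts put it at least 25.8-fold higher at Day 6 (edgeR adjusted p = 0.0102), the largest bound among the members. bath-7 had 63 Day 6 counts (0.598, 0.566 and 1.97 CPM) and none at L4, and was at least 5.97-fold higher at Day 6 (edgeR adjusted p = 0.0470).

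Other bath genes beside these were not called. bath-1 had 6.47, 5.09 and 4.11 CPM at Day 6, against 4.70 and 2.58 CPM at L4 (log2 fold change 0.55, edgeR adjusted p = 0.540), and overlapped between the ages although it stands close to bath-5. bath-2, bath-3, bath-4 and bath-24 had fitted changes of 1.60, 1.02, 1.68 and 1.92 on the log2 scale, none of them called. L4 replicate 1 was the higher L4 library in bath-2 (3.99 against 1.32 CPM) and in bath-3 (1.88 against 0.331 CPM). In bath-3 it stood above Day 6 replicate 1 (1.53 CPM), so the ages overlapped. Without L4 replicate 1, bath-2 (2.62), bath-3 (2.68) and bath-4 (2.00) were called higher, and without L4 replicate 2 bath-4 (1.45) was. The pseudogene bath-6 had 0.531, 0.613 and 0.655 CPM at Day 6, against 0 and 0.0662 CPM at L4, and was not called either (edgeR adjusted p = 0.0762). The 20 tested genes of this stretch that belong to neither family had a median log2 fold change of 4.44. Any of them with no L4 count were not set to a lower bound in this median. Of the 20, 9 rose and none fell, against 13.7% and 11.9% of all tested genes.

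The neighbourhood from 2514977 to 2524475 held the pseudogenes bath-12 and bath-18 and the gene bath-13. bath-12 had 3.69, 2.97 and 3.22 CPM at Day 6 and no count at L4. Its 228 Day 6 counts put it at least 21.6-fold higher at Day 6 (edgeR adjusted p = 0.0119), although it is annotated as a pseudogene. bath-13 had 57 Day 6 counts (0.498, 0.943 and 1.31 CPM) and none at L4, at least 5.40-fold higher at Day 6 (edgeR adjusted p = 0.0390).

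**Figure D3:**
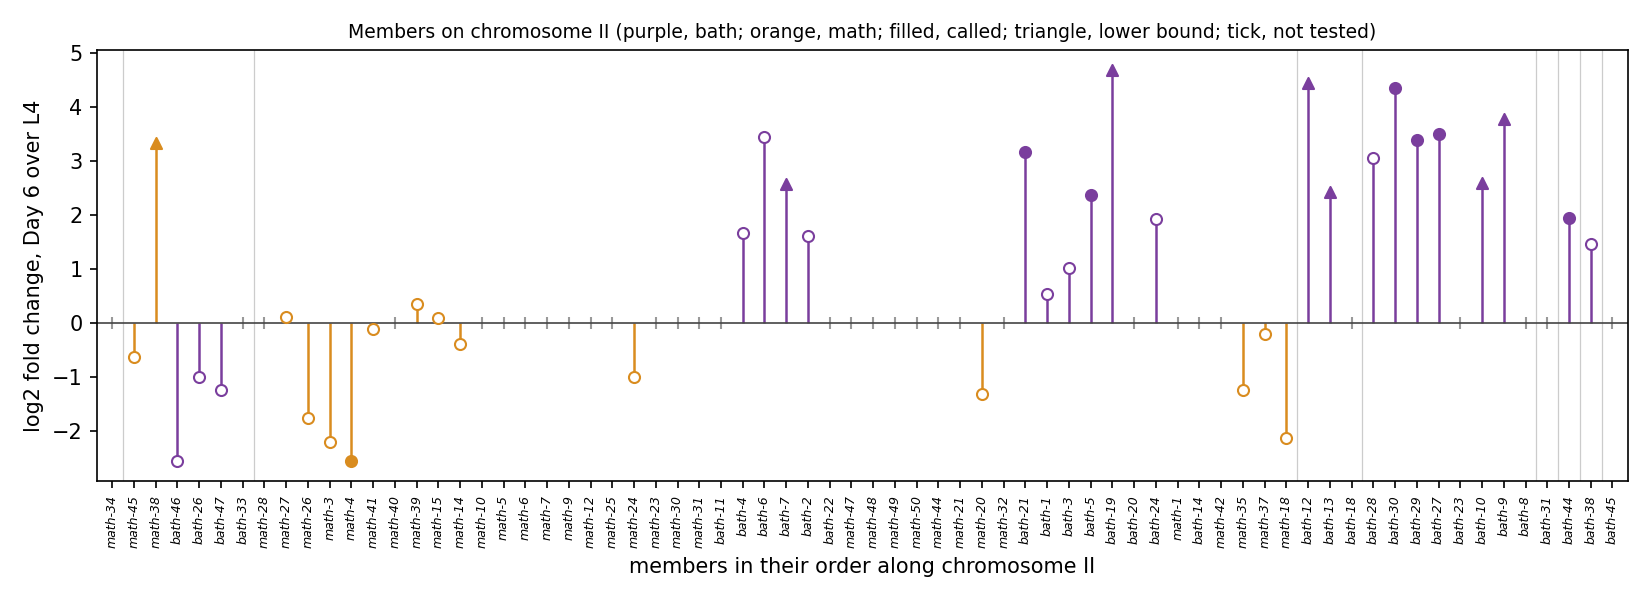
Log2 fold change, Day 6 over L4 (y axis), of the members on chromosome II in their order along it (x axis), bath genes in purple and math genes in orange. Filled symbols were called, triangles are lower bounds for genes with no L4 count, ticks on the zero line are members that were not tested, and grey lines separate members more than 100000 bases apart. The bath genes stand above 0 apart from bath-46, bath-26 and bath-47 near the left end.

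On chromosome I, bath-35 and bath-34 lie close together. bath-35 had 43 Day 6 counts (0.764, 0.566 and 0.476 CPM) and none at L4, at least 4.08-fold higher at Day 6 (edgeR adjusted p = 0.0456). bath-34 had 1.33, 1.74 and 1.91 CPM at Day 6, against 0.235 and 0 CPM at L4, and just missed the threshold (edgeR adjusted p = 0.0531). With 1 count at L4 its ratio was 31.0, with an exact 95% interval for counting error of 5.45 to 1235. It was called without L4 replicate 1, which leaves it no L4 count (edgeR adjusted p = 0.00361).

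Of the 49 tested members, 8 had no count at L4 and all 8 were called (7 bath genes and math-38). Over all tested genes there were 362 such genes, of which 299 were called. These 8 passed the count filter through Day 6 alone, so their calls had little room to differ. Of these, bath-7, bath-10, bath-13 and bath-35, as well as math-4, lost their calls without L4 replicate 2.

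Against the other bath genes, 3 tested ones had a negative fitted change, and they stand side by side on chromosome II between 1597906 and 1604621. bath-46 had 0.332, 0.330 and 0.893 CPM at Day 6, against 2.11 and 3.84 CPM at L4 (log2 fold change -2.55 ± 0.84, SE, edgeR adjusted p = 0.0612). bath-26 had 0.963, 1.27 and 1.19 CPM at Day 6, against 2.11 and 2.45 CPM at L4 (log2 fold change -1.003 ± 0.72, SE, edgeR adjusted p = 0.320). In both genes every Day 6 library lay below both L4 libraries, but neither was called, except that bath-46 was without L4 replicate 1 (-2.84, edgeR adjusted p = 0.0107), and their exons overlap by 28 bases on opposite strands.

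The third of them, bath-47, had 8.17, 6.08 and 6.02 CPM at Day 6, against 24.9 and 7.28 CPM at L4. Day 6 replicate 1 lay above L4 replicate 2, so the ages overlapped, and the log2 fold change was -1.24 ± 0.64 (SE, edgeR adjusted p = 0.183). It was -1.87 without L4 replicate 2 (edgeR adjusted p = 0.000268), where 24.1% of all tested genes were called lower, and -0.03 without L4 replicate 1. bath-33, the next gene along, had no count in any library.

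Among the math genes, math-33 (V, 11113907 to 11118824), the deubiquitylating enzyme, was by far the most abundant and the only one above 20 CPM in any library. It had 136, 115 and 117 CPM at Day 6, against 19.03 and 63.9 CPM at L4. Every Day 6 library was higher than both L4 libraries, but the L4 libraries were far apart and the gene was not called (log2 fold change 1.56 ± 0.65, SE, edgeR adjusted p = 0.113). The change was 1.02 without L4 replicate 1 (edgeR adjusted p = 0.0286) and 2.70 without L4 replicate 2 (edgeR adjusted p = 5.34e-05). With the trend of counts on exon length removed it was 0.49 (edgeR adjusted p = 0.497). Its exon length of 4225 bases compares with a median of 1392 bases over all tested genes.

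The other math genes were low, and their 2 L4 libraries differed widely. In 11 of the 16 tested math genes (68.75%) all Day 6 libraries lay between a lower L4 replicate 1 and a higher L4 replicate 2, which was so in 0 of 32 tested bath genes and 13.3% of all tested genes. L4 replicate 2 was the highest of the 5 libraries in 13 of the 16, against 2 of the 32 bath genes and 26.7% of all tested genes. The median log2 ratio of L4 replicate 2 to L4 replicate 1 (with 0.1 CPM added) was 0.00 in bath genes. That value falls on the 7 of 32 tested bath genes with no L4 count, whose ratio is 0 by construction. The median was 3.35 in math genes and 0.61 over all tested genes. A direction for these math genes therefore depended on which L4 library was used.

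math-20 illustrates this, with 3.82, 4.38 and 3.34 CPM at Day 6, against 1.64 and 17.1 CPM at L4. Its log2 fold change was -1.31 ± 0.86 (SE, edgeR adjusted p = 0.282), and it was -2.07 without L4 replicate 1 but 1.23 without L4 replicate 2. Only the change without L4 replicate 1 was called (edgeR adjusted p = 0.000799). math-26 was at 0.598, 3.16 and 2.98 CPM at Day 6, against 0.470 and 14.2 CPM at L4, and math-41 at 2.42, 4.76 and 4.23 CPM at Day 6, against 0.470 and 7.35 CPM at L4. Their changes were -2.60 for math-26 (called) and -0.87 for math-41 without L4 replicate 1, and 2.23 for math-26 and 3.00 for math-41 (called) without L4 replicate 2. The 3 genes were chosen as examples after their values were seen.

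**Figure D4:**
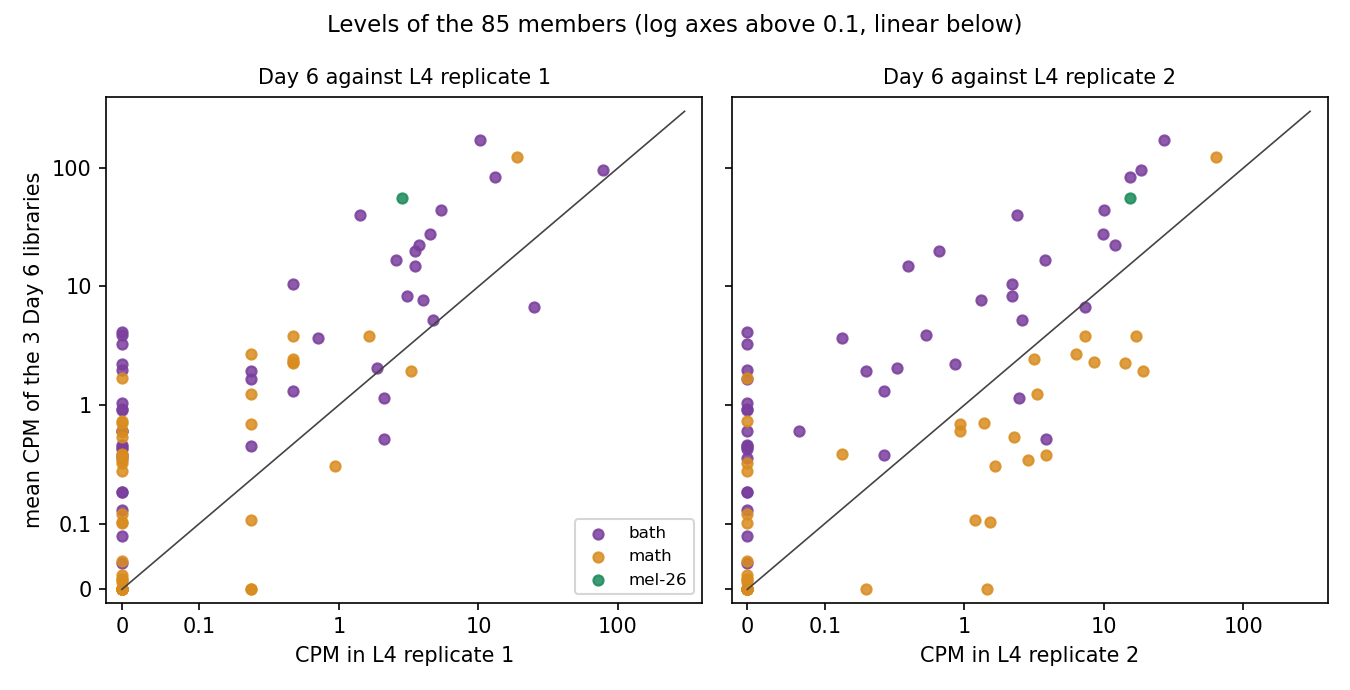
Mean CPM of the 3 Day 6 libraries (y axis) against CPM in L4 replicate 1 (left, x axis) and in L4 replicate 2 (right, x axis) for the 85 members, on axes that are logarithmic above 0.1 and linear below, with the line of equal levels. Most bath genes (purple) lie above the line in both plots, while most math genes with L4 counts (orange) lie above it against L4 replicate 1 and below it against L4 replicate 2.

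math-4 (II, 1778772 to 1782574) was the only member called lower. It had 2.06, 1.60 and 2.14 CPM at Day 6, against 3.29 and 19.1 CPM at L4, so both L4 libraries were higher than all Day 6 libraries. The log2 fold change was -2.55 ± 0.78 (SE, edgeR adjusted p = 0.0491). Without L4 replicate 2 it was -0.76 and no longer called (edgeR adjusted p = 0.311), and without L4 replicate 1 it was -3.22. math-18 and math-42 were the other math genes with every Day 6 library below both L4 libraries. math-18 had 0.199, 0.471 and 0.238 CPM at Day 6, against 0.940 and 1.65 CPM at L4, and was not called (log2 fold change -2.12 ± 0.86, SE, edgeR adjusted p = 0.103).

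math-38 (II, 1577378 to 1579986) was the math gene called higher, with 1.16, 1.37 and 2.50 CPM at Day 6 and no count at L4. Its 106 Day 6 counts put it at least 10.05-fold higher at Day 6 (edgeR adjusted p = 0.0236). It lies beside the 3 bath genes with negative fitted changes. The other math genes with every Day 6 library above both L4 libraries were math-33 and 4 genes too low to test, math-10, math-34, math-44 and math-49.

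Without L4 replicate 1, 28 members were called higher, where 26.4% of all tested genes were. In the same fit 8 math genes and bath-46 were called lower, where 24.4% of all tested genes were, and the median of the tested math genes was -1.80 on the log2 scale. Without L4 replicate 2, math-14, math-33, math-38, math-39 and math-41 were called higher, 5 of the 18 math genes then tested, where 36.7% of all tested genes were called higher. The median of these 18 was 2.85. The median of all tested genes was then 1.05. The bath median was 3.04 without L4 replicate 1 and 2.91 without L4 replicate 2, and with the length trend removed it was 2.53. In these medians genes with no L4 count stand at their fitted change, not at a lower bound. Only 23 of the 44 bath genes had counts in L4 replicate 1, and 25 in L4 replicate 2.

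**Figure D5:**
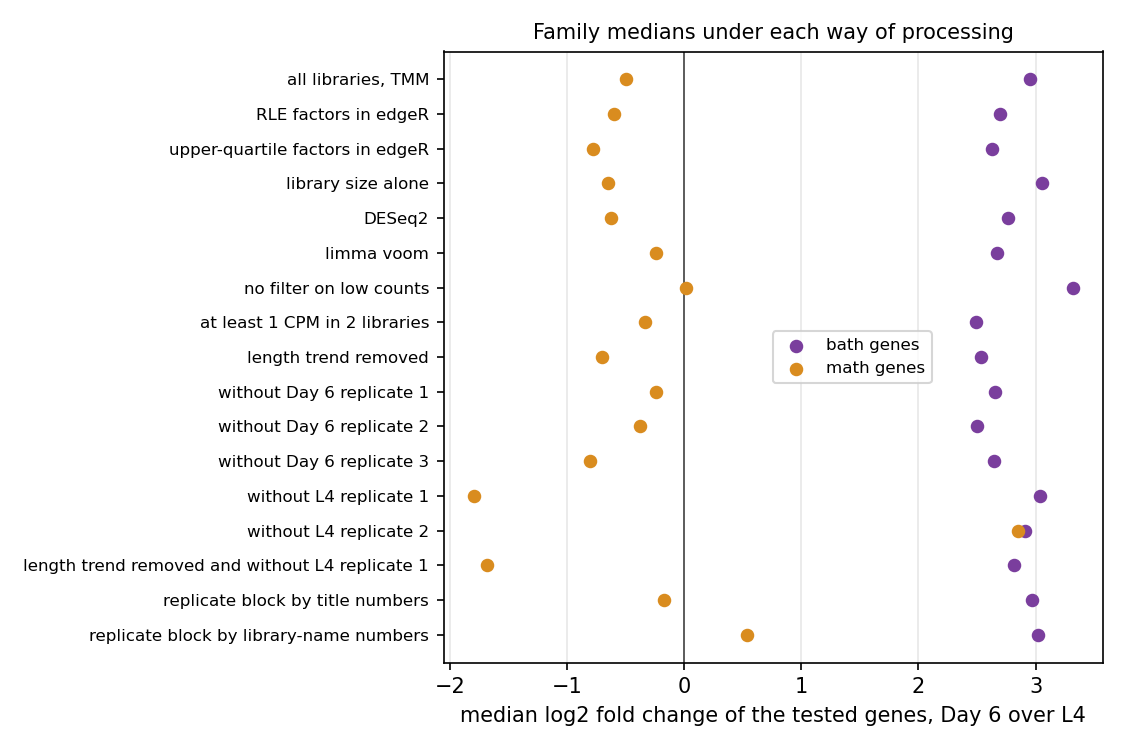
Median log2 fold change, Day 6 over L4 (x axis), of the tested bath genes (purple) and math genes (orange) with all libraries and under each of 16 alternatives (y axis). The bath medians lie between 2.49 and 3.31, while the math medians run from -1.80 without L4 replicate 1 to 2.85 without L4 replicate 2. Genes with no L4 count enter at their fitted change, which could only be positive (7 of 32 tested bath genes with all libraries). This holds the bath medians up in part. A median with lower bounds was taken with all libraries only (2.52 for bath genes).

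Counts were scarce in the 28 members that had counts but were not tested. At L4, 27 members had no count but had counts at Day 6 (16 bath and 11 math genes), and 3 math genes had counts at L4 and none at Day 6. Of those not tested, the highest sums at Day 6 with none at L4 were 44 counts for math-44, 38 for bath-31, 29 for bath-18, 28 for bath-22 and 23 for math-49. Next came bath-8 and math-10 with 21 each, bath-37 and bath-45 with 13 each, and math-43 with 10. Against 3 L4 counts the lower bounds of these were 1.99-fold for bath-8 and math-10, 1.23-fold for bath-37 and bath-45, and 0.95-fold for math-43. Bounds this near to 1 do not show that a gene was specific to Day 6. math-42 showed the opposite, with 0 counts in all Day 6 libraries and 1 and 22 counts in L4 replicates 1 and 2. It was called lower where the count filter was not applied (edgeR adjusted p = 0.0224), with DESeq2 (adjusted p = 0.0123) and without L4 replicate 1 (edgeR adjusted p = 0.00878). The counts of bath-31 came nearly all from Day 6 replicate 1 (1.13, 0.189 and 0 CPM), so they are no repeated difference between the ages.

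The 8 members with no count in any library were bath-33 and 7 math genes (math-1, math-7, math-9, math-12, math-30, math-46 and math-47). Close copies exist in both families, and how the counting treated reads that match several genes is not stated, so the values of similar neighbours may be shared or lost.

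Partners of these adaptors were followed as lists. Of the 8 genes of the CUL-3 ligase core and of neddylation, which activates cullins, 1 rose and none fell, against 13.7% and 11.9% of all tested genes, with a median log2 fold change of 0.71. cul-3, the cullin itself, had 121, 100 and 82.5 CPM at Day 6, against 81.0 and 46.0 CPM at L4, not called (log2 fold change 0.67 ± 0.53, SE, edgeR adjusted p = 0.362). Its sign turned with the length trend removed (-0.88). The change was 1.22 without L4 replicate 1 and 0.33 without L4 replicate 2. The RING subunit rbx-1 had 132, 80.2 and 97.6 CPM at Day 6, against 162 and 38.4 CPM at L4, so that the Day 6 libraries fell between the L4 libraries (log2 fold change 0.04 ± 0.69, SE, edgeR adjusted p = 0.966). Without L4 replicate 1 it was called higher (edgeR adjusted p = 0.0073), and without L4 replicate 2 its change was -0.64.

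The gene that rose was rfl-1, part of the enzyme that activates NED-8, with 42.3, 44.8 and 38.8 CPM at Day 6, against 5.87 and 13.6 CPM at L4 (log2 fold change 2.09 ± 0.57, SE, edgeR adjusted p = 0.0345), and a change of 2.84 without L4 replicate 2. None of the 6 tested genes of the COP9 signalosome, which removes NED-8 from cullins, was called, with a median log2 fold change of 1.11. None of 12 other cullins and SKP1-related genes was called, with a median of 0.60. Over all tested genes 13.7% were called higher and 11.9% lower. In lists of 6 and 12 genes few calls would be expected at these shares, so their absence shows little.

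Other genes with BTB or kelch names, 21 in all and 18 tested, include further possible CUL-3 adaptors. Of these, 6 rose (btb-6, btb-7, btb-8, btb-10, btb-19 and kel-20) and none fell, against 13.7% and 11.9% of all tested genes, with a median log2 fold change of 0.65. btb-8 and btb-10 had no L4 count and passed the count filter through Day 6 alone. btb-19 had 16.5, 19.4 and 22.7 CPM at Day 6, against 1.64 and 2.45 CPM at L4 (log2 fold change 3.22 ± 0.60, SE, edgeR adjusted p = 0.0112). kel-20 had 12.7, 17.2 and 17.5 CPM at Day 6, against 1.64 and 4.43 CPM at L4 (log2 fold change 2.32 ± 0.65, SE, edgeR adjusted p = 0.0380), with a change of 3.26 without L4 replicate 2. Both lost their calls under 6 of 16 alternatives. Whether these lists differ from the bath genes was not tested.

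Markers of somatic tissues mostly fell or were not called. Of 10 body wall muscle markers 6 fell and none rose (2849 to 3873 CPM summed at Day 6, against 12087 to 28432 CPM at L4). Of 10 hypodermis markers 6 fell and 1, lin-26, rose (255 to 440 CPM, against 1940 to 8431 CPM). Of 9 intestine markers 4 fell and 1, vit-2, rose. With vit-2 the intestine sums overlapped (41931 to 86427.5 CPM, against 8570 to 43462 CPM). None of 10 neuron markers was called (337 to 544 CPM, against 213 to 881 CPM). Of all tested genes, 13.7% rose and 11.9% fell. The part of these tissues in the levels of the math and bath genes was not tested.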

How the data were processed

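Whole N2 worms were measured by RNA-seq in 5 libraries, 3 at Day 6 and 2 at L4, which the study describes as independent biological replicates. Before the files were deposited, the authors depleted rRNA, made strand-specific cDNA, sequenced single reads of 125 bases, aligned them with TopHat2 to WormBase WS254 and used featureCounts to count reads in genes. The deposited values are raw counts, whole numbers per gene. Tool versions and the strand and multi-mapping settings of the counting are not given in the sources used here.

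The counts were tested in R 4.3.3 with edgeR 4.0.16 (TMM factors, filterByExpr with 10 as minimum count and 15 as minimum total, robust quasi-likelihood fit, 2-sided, Benjamini-Hochberg over 12758 genes, calls under 0.05). SE is the log2 fold change divided by the root of F. Genes without L4 counts were bounded against 3 counts over the group, and 1 to 3 counts gave a ratio with an exact 95% interval, which covers counting error only. Coordinates and exon lengths are from Ensembl release 115 (WBcel235), and 9 members without a WormBase ID were placed through their RefSeq locus tags.

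The members and gene lists were chosen with earlier results of these data known. Named were mel-26, all called members, the 10 members of highest mean CPM, members with 10 or more counts at 1 age and none at the other, and of each pathway list up to 2 genes called in each direction, with cul-3, rbx-1, mei-1, mei-2 and ppfr-1. Other genes named were chosen after their values were seen.

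There were 16 alternatives: RLE, upper-quartile and library size factors, DESeq2 1.42.0, voom in limma 3.58.1, no filter, at least 1 CPM in 2 libraries, each library left out, the replicate block by either numbering, and removal of the trend of counts on exon length (lowess, span 0.3) with and without L4 replicate 1. The labels say that cohorts were divided between the ages, and equal numbers may therefore mean 1 cohort, but titles and library names number the L4 libraries differently. Deviations from the group means of same-numbered libraries correlated at 0.34 and 0.27 by titles and at -0.27 and 0.13 by library names. With 2 L4 libraries their deviations mirror each other. The 0.27 and -0.27, both with Day 6 replicate 2, are therefore 1 value with its sign turned. Tables and plots were made in Python 3.11.15 (pandas 2.3.3, matplotlib 3.10.9).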

Additional observations from a re-analysis of the deposited data

How the results depend on the processing

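The 19 members called higher became 0 with library size alone, 5 and 2 with the replicate block by title and by library-name numbers, and 1 to 28 with a library left out. The 1 member called lower became 2 with RLE factors, upper-quartile factors, no filter or the length trend removed, 3 with DESeq2, 0 with library size alone and with either replicate block, 9 with the length trend removed and without L4 replicate 1, and 0 to 9 with a library left out. The shares of all tested genes called moved too. With library size alone 0.862% were called higher and 1.04% lower. With the replicate block by title and by library-name numbers 5.93% and 3.14% were called higher, and 4.96% and 2.82% lower. Called lower were 14.8% with RLE factors, 15.2% with upper-quartile factors, 10.5% without a filter, 16.4% with the length trend removed and 20.7% with DESeq2. Leaving out a library also leaves fewer samples, and for the other settings the cause was not tested. The median log2 fold change of the tested members, 1.92, ran from 1.59 to 3.00 with a library left out. The math median turned to 0.017 without a filter, 2.85 without L4 replicate 2 and 0.54 with the replicate block by library-name numbers, and ran from -1.80 to 2.85 with a library left out. For cul-3 the sign turned with the length trend removed (-0.88), and for rbx-1 with RLE factors (-0.34), upper-quartile factors (-0.31), DESeq2 (-0.25), the CPM filter (-0.0042), without L4 replicate 2 (-0.64) and without Day 6 replicate 1 (-0.20), with a library left out giving -0.64 to 1.5. None of the 20 called members changed sign under any alternative that tested it. All 20 kept their calls with RLE factors and without L4 replicate 1, 19 with DESeq2, voom and the length trend removed (which could test 19), 18 without a filter and 15 with upper-quartile factors. The median of all tested genes, 0.08, moved by 0.97 without L4 replicate 2, by -0.40 with the length trend removed and by 0.37 with library size alone. The 28 members below the count filter had too few counts for the test with all libraries, and of these math-42, math-21 and math-40 were called lower, and math-44 higher, under alternatives that did not filter them out.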
